A study of Mus musculus with 9 samples.

Results

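The nuclear-encoded genes of the mitochondrial respiratory chain and of ATP synthase were described in mouse lung after chronic hypobaric hypoxia. Members were all probe sets whose platform annotation gave a single gene symbol beginning with Nduf (series a, b, c, s and v), Uqcr, Cox4 to Cox8 or Atp5, or equal to Sdha, Sdhb, Sdhc or Sdhd. They numbered 179 probe sets for 90 genes, of 45037 probe sets for 18193 named genes on the array. Another 10 probe sets list a member beside other genes and were left out. By complex the members were 42 genes of complex I, including 8 assembly factors, 4 of complex II, 8 of complex III, 19 of complex IV and 17 of complex V.

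The study hybridised whole right lung RNA of mice of 3 inbred strains, C57/BL6 (called BL6), FVB/N and SV129, on 9 one-colour oligonucleotide arrays. In each strain 2 arrays came from hypoxic mice kept for 4 weeks at 50 kPa and 1 array from normoxic mice kept at 85 kPa, the pressure of Denver's altitude, so the normoxic mice were themselves below sea-level pressure. The labels name no transgene or drug, give no ages, and do not say whether each array is a separate animal. The lone normoxic array of a strain is called its control. The p-values therefore rest on array-to-array spread alone, which may be technical.

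Complexes I to IV sit in the inner mitochondrial membrane, where complexes I and II feed electrons from NADH and succinate to ubiquinone, complex III passes them to cytochrome c, and complex IV, cytochrome c oxidase, hands them to oxygen. Complexes I, III and IV pump protons, and complex V, the ATP synthase, uses the resulting gradient to make ATP. Tissues with heavy oxidative work, such as kidney tubule, heart and brown fat, hold many mitochondria, and several complex IV subunits have a separate isoform in heart and skeletal muscle.

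A level is given below as the quantile normalized log2(signal + 16) of a probe set on an array. Changes were taken between arrays for the same probe set. Brightness served to choose 1 probe set per gene, the brightest, and to name dim ones. A filter on dim probe sets kept 163 member probe sets and 88 member genes, of 27022 probe sets and 12895 genes in all. Ndufb4, a complex I accessory subunit, stayed below it, with levels from 5.31 to 6.03, as did Cox7b2, a testis isoform of complex IV, with levels from 4.51 to 5.56. "Called" means a Benjamini-Hochberg adjusted p below 0.05 over all 27022 probe sets in a limma fit.

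The proximal promoters of 5 members are shown, 3 that hold binding motifs of factors known to drive respiratory chain genes and 2 of muscle isoforms that do not. The 250 bases before the transcription start were taken from RefSeq (GRCm38.p6) and written 5′ to 3′ on the gene's strand. Capitals mark a binding motif of nuclear respiratory factor 1 (NRF1), the letters GCGC and TGCGC with any 1 base between them, and CGGAAG, the core motif of the ETS factor GABP, each on either strand. No match of the one overlapped a match of the other.

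Sdha (chr13:74350241-74350490, minus strand): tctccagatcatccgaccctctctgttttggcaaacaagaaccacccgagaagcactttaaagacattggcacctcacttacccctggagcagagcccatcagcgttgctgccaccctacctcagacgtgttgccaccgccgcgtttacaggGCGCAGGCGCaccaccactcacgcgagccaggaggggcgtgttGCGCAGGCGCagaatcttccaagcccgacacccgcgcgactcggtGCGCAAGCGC
Cox6a1 (chr5:115348959-115349208, minus strand): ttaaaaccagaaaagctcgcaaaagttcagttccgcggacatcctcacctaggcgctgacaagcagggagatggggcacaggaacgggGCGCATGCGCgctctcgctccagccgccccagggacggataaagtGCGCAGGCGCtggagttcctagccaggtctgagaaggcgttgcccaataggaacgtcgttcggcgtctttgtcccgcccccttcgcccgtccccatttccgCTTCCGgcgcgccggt
Atp5h (chr11:115419920-115420169, minus strand): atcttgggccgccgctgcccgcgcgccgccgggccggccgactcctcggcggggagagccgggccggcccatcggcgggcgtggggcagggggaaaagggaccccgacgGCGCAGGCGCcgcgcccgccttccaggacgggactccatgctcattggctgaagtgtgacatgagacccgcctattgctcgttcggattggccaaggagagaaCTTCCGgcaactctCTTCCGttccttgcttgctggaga
Cox7a1 (chr7:30183921-30184170, plus strand): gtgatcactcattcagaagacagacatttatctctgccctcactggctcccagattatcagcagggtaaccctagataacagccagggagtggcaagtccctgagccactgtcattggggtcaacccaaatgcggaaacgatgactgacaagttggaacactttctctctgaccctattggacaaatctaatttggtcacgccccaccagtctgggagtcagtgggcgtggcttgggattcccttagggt
Cox8b (chr7:140900447-140900696, minus strand): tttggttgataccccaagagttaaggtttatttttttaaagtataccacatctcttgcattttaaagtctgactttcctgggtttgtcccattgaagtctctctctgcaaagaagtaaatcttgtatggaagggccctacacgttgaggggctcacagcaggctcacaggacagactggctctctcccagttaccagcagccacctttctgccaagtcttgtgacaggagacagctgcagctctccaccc

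Of the 90 member genes, 74 had a promoter in the table. The NRF1 letters stood in 12 of these 74 (16.2%), against 5.84% of the promoters of 17491 protein-coding genes. The GABP letters stood in 28 (37.8%), against 19.2%. Median GC content was 57.6% in the members and 55.6% in all genes. Sdha, the catalytic subunit of complex II, held the NRF1 letters 3 times in its 250 bases, and Cox6a1, the general isoform of a complex IV subunit, held them 2 times beside the GABP letters. Atp5h, a stalk subunit of ATP synthase, held both kinds. The muscle isoforms Cox7a1 and Cox8b held neither in this window, with 4 and 1 CpG dinucleotides against a median of 15 in the members. The same holds for the motifs in their general partners Cox7a2 and Cox8a, with 14 and 11 CpG, and the general subunits Ndufc2 and Uqcr10 have 4 and 5 CpG, so neither measure separates muscle from general genes. A match describes letters only and is not evidence of binding.

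Before the results, 2 arrays have to be set apart, since both carried kidney transcripts. The mean level of 18 kidney markers was 12.60 on the FVB/N control and 11.50 on array 2 of hypoxic BL6. The other 7 arrays had means of 5.92 to 6.50. All 18 markers were higher on both of these arrays than on any of the other 7. The FVB/N control also carried fast skeletal muscle transcripts. All 8 fast muscle markers were highest there, with a mean of 10.78 against 5.35 to 6.13 on the other 8 arrays. The 3 brown adipocyte markers, listed with them, were dim on every array and had a mean of 4.97 there, against 4.90 to 5.62 elsewhere. Ucp1 was at 4.54, Cidea, at 4.34, was the lowest of 9, and Elovl3, at 6.03, was the highest of 9. The list of 11 as a whole had a mean of 9.19, against 5.34 to 5.99. The FVB/N control had the lowest mean of 11 endothelial markers (11.43, against 11.83 to 12.40). Alveolar type 2 markers, the defining genes of the labelled tissue, were high on all 9 arrays, with means from 13.42 to 13.88. The mean of 24 heart and skeletal muscle markers was lowest on array 2 of hypoxic BL6, at 8.36. It was highest on the controls of FVB/N and BL6, at 10.25 and 10.04, although only 7 of the 24 were highest on the FVB/N control. All 14 spiked-in bacterial control probe sets separated the 6 hypoxic from the 3 normoxic arrays, 10 of them higher and 4 lower under hypoxia. In bulk lung, fewer cells of a type and less RNA per cell cannot be told apart.

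The respiratory chain was at its highest on these same 2 arrays. For each gene the level was set against its mean over the 7 other arrays. The median over 88 member genes was 0.84 on the FVB/N control and 0.39 on array 2 of hypoxic BL6, while the median over all 12895 genes was -0.14 and -0.05 there. Hypoxic BL6 array 5 had a member median of 0.14, and the other 6 arrays lay between -0.06 and 0.05. The FVB/N control was the highest of 9 arrays for 70 of 88 member genes (79.5%), against 18.7% of all genes. It lay above both hypoxic FVB/N arrays for 83 of 88 member genes, against 33.9% of all genes. Both arrays together lay above the other 7 for 57 of 88 member genes, against 8.82% of all genes. The kidney markers moved with this pattern, and their part in it was not tested.

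The elevation differed in size between complexes. On the FVB/N control the median was 0.76 for complex I, 1.07 for complex II, 1.21 for complex III, 0.72 for complex IV and 0.87 for complex V. On hypoxic BL6 array 2 it was 0.37, 0.64, 0.55, 0.29 and 0.40 in the same order. Complexes II and III had the largest medians on both arrays, and complex IV the smallest. Both arrays lay above the other 7 for 4 of 4 genes of complex II, 7 of 8 of complex III, 14 of 17 of complex V, 23 of 41 of complex I and 9 of 18 of complex IV.

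**Figure D1:**
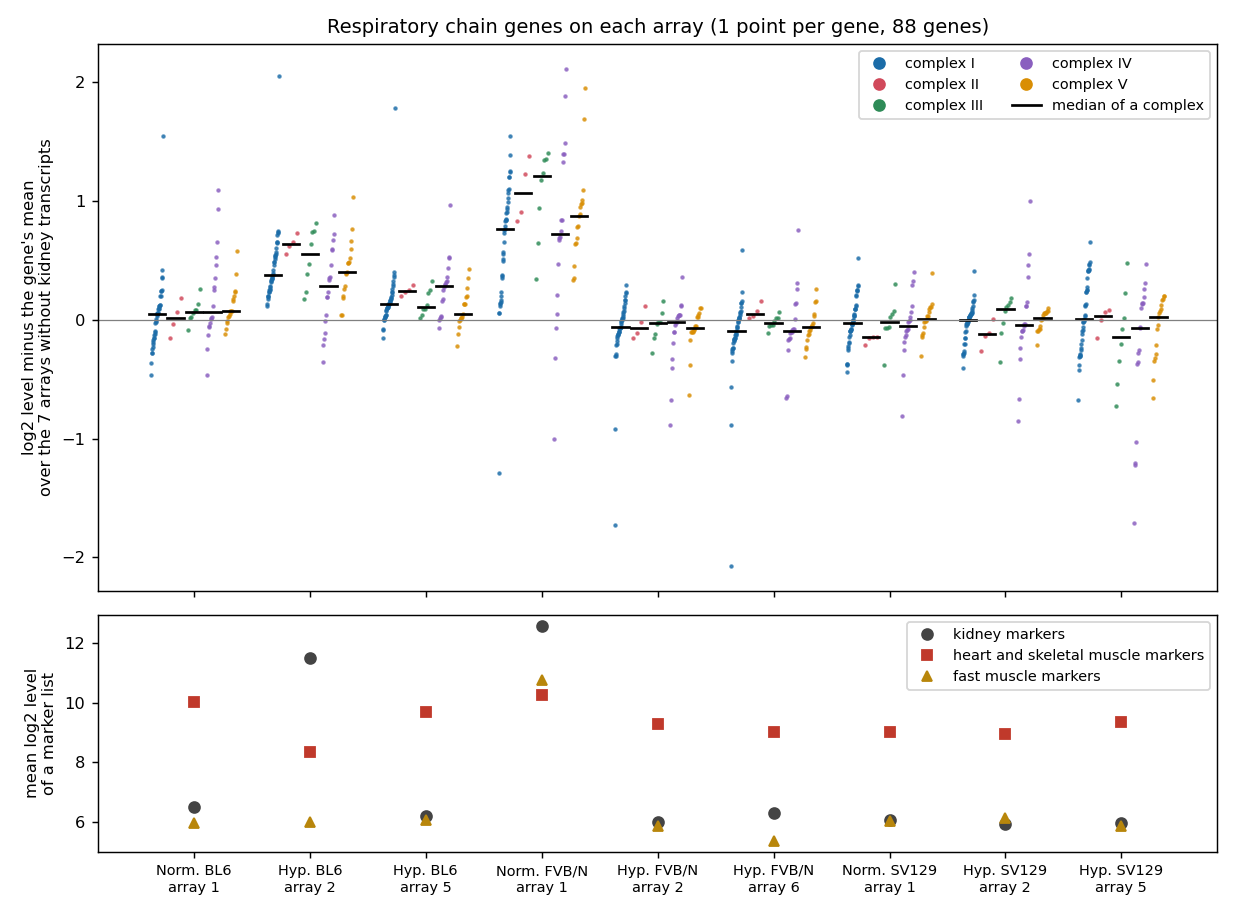
Upper panel: log2 level of each of 88 respiratory chain genes minus its mean over the 7 arrays without kidney transcripts, 1 point per gene, for each array, with complexes in colour and black bars at their medians. Lower panel: mean log2 level of the kidney, heart and skeletal muscle, and fast muscle markers on the same arrays. The complex medians stand between 0.72 and 1.21 on the FVB/N control and between 0.29 and 0.64 on array 2 of hypoxic BL6, the 2 arrays with kidney means of 12.60 and 11.50.

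The 18 genes that were not highest on the FVB/N control were 12 of complex I, 5 of complex IV and 1 of complex V. They included 5 complex I assembly factors (Ndufaf2, Ndufaf3, Ndufaf5, Ndufaf7, Ndufaf8) and accessory subunits such as Ndufs5 and Ndufb11, the complex IV isoforms Cox4i2, Cox6b2 and Ndufa4l2, and Atp5g2, 1 of the genes for subunit c of ATP synthase. Cox7a2l, which joins complex IV to complex III in supercomplexes, reached 12.08 on that array and was highest on hypoxic BL6 array 5, at 12.41.

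The first comparison asked how 4 weeks at lower pressure changed these genes across the strains. Over 9 arrays the median change of 88 member genes was -0.21 on the log2 scale (hypoxic minus normoxic), with 71 genes lower and 17 higher. Beside it stood a median of 0.03 over all genes, of which 47.0% were lower. Without the 2 arrays with kidney transcripts the same median was 0.03, with 36 genes lower and 52 higher, beside 0.03 over all genes. The lower median of the respiratory chain was thus not seen in the remaining 7 arrays. FVB/N has no control among these 7, so the size of the change there rests on BL6 and SV129 alone. This applies to every hypoxic change over 7 arrays given below, none of which tests FVB/N.

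By complex, the medians over 9 and over 7 arrays were -0.12 and 0.10 for complex I, -0.17 and 0.16 for complex II, and -0.35 and 0.01 for complex III. They were -0.19 and 0.02 for complex IV and -0.30 and -0.02 for complex V. The sign of the median turned in complexes I to IV when both arrays were left out. Centring each array on its median log2 value instead of quantile normalization moved the median change of all probe sets from 0.04 to 0.11, and that of complex IV from -0.19 to -0.0029.

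**Figure D2:**
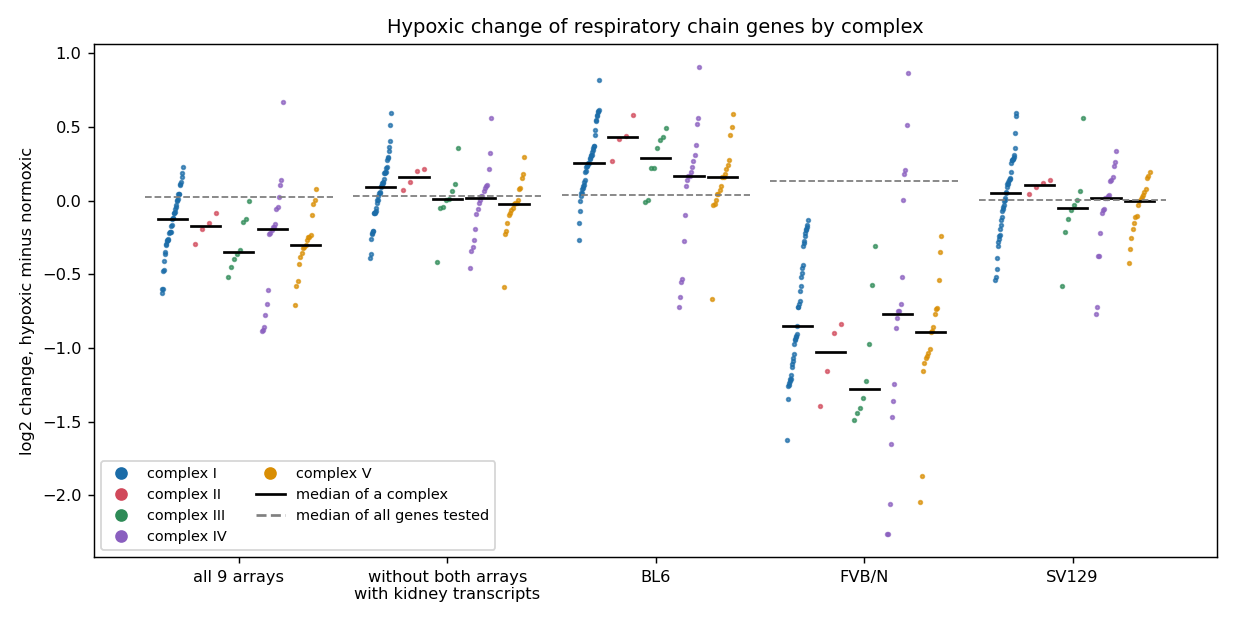
Log2 change (hypoxic minus normoxic) of each of 88 respiratory chain genes, 1 point per gene, over all 9 arrays, over the 7 arrays without kidney transcripts, and within each strain. Black bars are complex medians and dashed lines the medians of all genes tested. The FVB/N changes lie far below the others, with a member median of -0.89, whereas the 7-array and SV129 medians are 0.03 and 0.02. The 7 arrays include no FVB/N control, so their changes rest on BL6 and SV129.

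Of 163 member probe sets, 9 were called for hypoxia over 9 arrays, 5.52%, against a background of 3.76% (limma, Benjamini-Hochberg). All 9 were lower, where 1.82% of all probe sets were called lower. They belong to 9 genes: Ndufa12 and Ndufb6, accessory subunits of complex I, Sdhd, a membrane anchor of complex II, Uqcrb, a small subunit of complex III, Cox5a and Cox6c of complex IV, and Atp5h, Atp5o and Atp5pb of the ATP synthase stalk. The 6 hypoxic arrays lay below all 3 normoxic arrays in each of the 9. Such separation downward was seen in 13 of 163 member probe sets, against 4.12% of all probe sets, and upward in 2, against 6.53%. By brightest probe set it was seen downward in 2 of 88 member genes (2.27%), against 3.57% of all genes. Upward it was seen in 0 of 88, against 5.95%.

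In only 1 of these genes was the called probe set the brightest one, Atp5pb, which encodes the b subunit of the peripheral stalk. Its levels on the 6 hypoxic arrays ran from 12.40 through a median of 12.63 to 12.83. On the normoxic arrays they were 13.36 in BL6, 13.47 in FVB/N and 13.18 in SV129. Every hypoxic array was thus below every normoxic array. The part of the kidney transcripts in this change was not tested. The change was -0.71 ± 0.130 (SE; 1.63-fold lower; limma adjusted p = 0.0261), and -0.58 ± 0.131 over 7 arrays (adjusted p = 0.0844). By brightest probe sets, 1 of 88 member genes was called, against 2.75% of all genes.

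The other probe set of Atp5pb changed by -0.34 ± 0.233 (adjusted p = 0.428), and by -0.02 over 7 arrays. The pair of probe sets for this gene therefore did not give the same call. The same held in the other 8 genes.

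Cox5a, a matrix-side subunit of complex IV, had the call with the smallest p. Its probe set 1439267_x_at lay between 10.55 and 11.19 on the 6 hypoxic arrays, with a median of 10.78. It stood at 12.29, 12.83 and 12.02 on the normoxic BL6, FVB/N and SV129 arrays. The groups did not overlap, and the change was -1.52 ± 0.212 (2.86-fold lower; limma adjusted p = 0.0151). Over 7 arrays it was -1.26 ± 0.195 (adjusted p = 0.0432), the single member probe set of 163 called there, where the background was 0.844%. The 2 other probe sets of Cox5a changed by -0.20 ± 0.285, the brightest, and by -0.58 ± 0.179, with adjusted p of 0.721 and 0.104.

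Sdhd, which anchors succinate dehydrogenase in the membrane, gave the largest fall among the 9. Its probe set 1437489_x_at was dim, at 6.90 to 7.76 on the hypoxic arrays (median 7.36) and at 8.84, 9.41 and 8.39 on the normoxic BL6, FVB/N and SV129 arrays. It fell by 1.56 ± 0.271 on the log2 scale (2.95-fold; limma adjusted p = 0.0226). The brightest probe set of Sdhd changed by -0.15 ± 0.278 (adjusted p = 0.782), and its hypoxic and normoxic levels overlapped.

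Atp5o, the oligomycin sensitivity subunit, fell by 1.12 ± 0.164 on probe set 1437164_x_at (adjusted p = 0.0166), from normoxic levels of 10.45 to 11.00 to hypoxic levels of 9.29 to 9.81. Ndufb6 fell by 1.05 ± 0.178 on probe set 1434056_a_at (adjusted p = 0.0212), from 11.57 to 12.22 down to 10.51 to 11.04. Ndufa12, the accessory subunit beside the electron input module, fell by 0.89 ± 0.193 on probe set 1418814_s_at (adjusted p = 0.0427). These 3 groups of arrays were again separated, with the FVB/N control highest in each. The remaining calls were smaller. Uqcrb fell by 0.72 ± 0.151 on probe set 1416337_at (adjusted p = 0.0386) and Cox6c by 0.69 ± 0.129 on 1434491_a_at (adjusted p = 0.0274). Atp5h fell by 0.66 ± 0.111 on 1435112_a_at (adjusted p = 0.0211). The brightest probe sets of Uqcrb, Cox6c and Atp5h changed by -0.0048, -0.22 and 0.0063. Those of Atp5o, Ndufb6 and Ndufa12 changed by -0.38, -0.36 and -0.47. Ndufa12 had 2 further probe sets, at -0.49 and 0.69.

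The 9 genes have 12 other probe sets past the filter. None of these 12 was called, 10 of them were lower, and they ranged from -0.58 to 0.69 with a median of -0.28. The calls differed in how often they were lost under alternative processing or with arrays left out. Of 18 such settings Cox5a lost its call in 3, Atp5o in 4, Ndufb6 in 5, Sdhd in 6, Cox6c and Atp5h in 8, Uqcrb in 11 and Ndufa12 in 13, and Atp5pb lost it in 9 of 19. The called probe sets ranged from -1.26 to -0.57 over the 7 arrays without kidney transcripts, so each stayed lower there, and 8 of them missed the threshold. Of the 9, 8 carry a probe set suffix (_a, _s or _x) that the array maker gives to probes shared by several transcripts or cross-hybridising ones. Among member probe sets 8 of 85 with such a suffix were called and 1 of 78 without it, beside 4.05% and 1.02% of all probe sets called lower. The spiked-in controls separated the same groups of arrays, and their part in these calls was not tested.

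**Figure D3:**
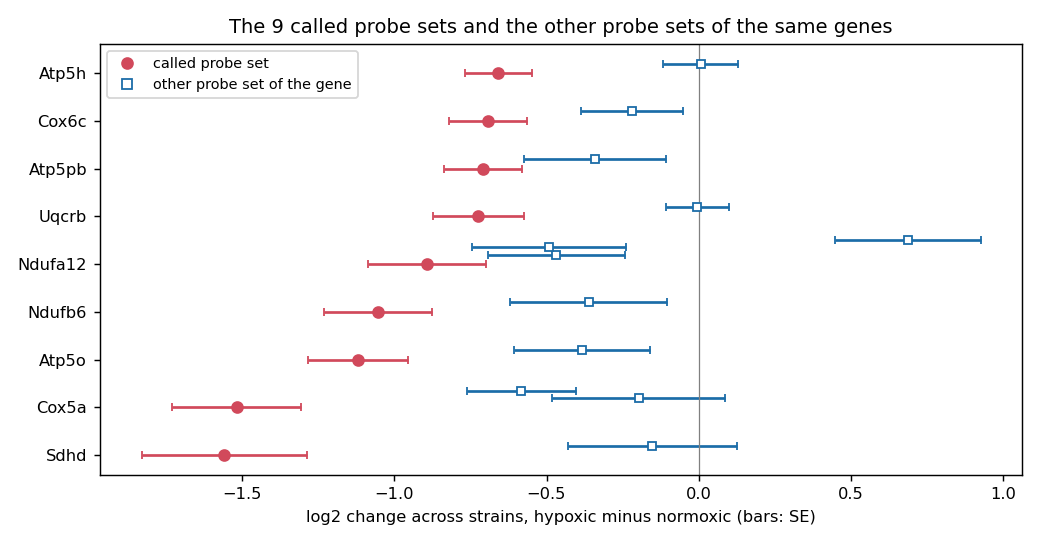
Log2 change across strains (hypoxic minus normoxic, bars SE) of the 9 called respiratory chain probe sets, filled circles, and of the 12 other probe sets of the same genes, open squares. The called probe sets lie between -1.56 and -0.66 and the others between -0.58 and 0.69.

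Among the remaining genes the core of complex I, which carries the flavin and the iron-sulphur clusters, gave no call. Its 6 genes (Ndufs1, Ndufs3, Ndufs7, Ndufs8, Ndufv1 and Ndufv2) had a median change of -0.08 over 9 arrays and of 0.21 over 7 arrays, with 6 of 6 higher there. Ndufs1, the largest of them, stood at 11.51 and 11.12 on the hypoxic BL6 arrays, 11.06 and 10.89 in FVB/N, and 10.98 and 11.37 in SV129. It stood at 10.71, 12.16 and 10.58 on the normoxic BL6, FVB/N and SV129 arrays, so both BL6 and SV129 were higher under hypoxia and FVB/N was lower. Its change over 7 arrays was 0.51 ± 0.176, which did not pass the test (limma adjusted p = 0.215).

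Ndufc1 and Ndufa6, both accessory subunits, had the smallest p of complex I by brightest probe set. Ndufc1 changed by -0.62 ± 0.211 (adjusted p = 0.129) and Ndufa6 by -0.60 ± 0.207 (adjusted p = 0.135), and by -0.36 and -0.39 over 7 arrays. Ndufa13, the brightest complex I gene, changed by 0.23 over 9 arrays and 0.60 over 7, with adjusted p of 0.638 and 0.111. Its levels were 12.61 and 12.71 on the normoxic BL6 and SV129 arrays and 13.06 to 13.63 on all 6 hypoxic arrays, but 13.92 on the FVB/N control, so the groups overlapped through that array.

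In complex II, Sdhb, the iron-sulphur subunit, was at 12.84 and 12.35 on the hypoxic BL6 arrays, 12.00 and 12.19 in FVB/N and 12.00 and 12.10 in SV129. Its normoxic levels were 12.18, 13.49 and 11.96 in BL6, FVB/N and SV129. The FVB/N control was the highest of the 9 arrays. Sdha changed by -0.19, Sdhb by -0.29, Sdhc by -0.09 and Sdhd by -0.15 over 9 arrays, and by 0.07, 0.12, 0.20 and 0.22 over 7 arrays, none of them called.

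Complex III showed the lowest median over 9 arrays, yet none of its 8 genes was called by brightest probe set. Uqcr11 changed by -0.52 (adjusted p = 0.232), and by -0.41 over 7 arrays. Uqcrc2, a core protein, changed by -0.45 and -0.04. Uqcrfs1, the Rieske iron-sulphur protein, changed by -0.14 and 0.36. In complex V, Atp5b, the catalytic beta subunit, changed by -0.43 and -0.22, and Atp5g3, for the ring subunit c, by -0.24 and -0.01.

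Complex IV has paired isoforms, and the members cover both sides. The muscle forms Cox6a2, Cox7a1 and Cox8b changed by -0.88, -0.88 and -0.86 over 9 arrays, with adjusted p of 0.175, 0.234 and 0.25, and by -0.09, -0.06 and 0.07 over 7 arrays. Their general counterparts Cox6a1 and Cox7a2 changed by -0.06 and -0.18, and by 0.10 and 0.03 over 7 arrays. Under median centring Cox6a1 and Cox7a2 changed by 0.22 and 0.08, so the sign of both depends on the scaling. Cox8a, the general partner of Cox8b, changed by -0.60 and -0.34.

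Cox6a2 was at 10.48, 10.95 and 9.40 on the normoxic BL6, FVB/N and SV129 arrays. Its hypoxic levels were 9.44 and 10.08 in BL6, 8.88 and 8.91 in FVB/N, and 9.41 and 9.69 in SV129. BL6 and FVB/N were thus highest in the normoxic array, and SV129 was lowest there. The mean of the 24 heart and skeletal muscle markers ran the same way within BL6, at 10.04 normoxic and 8.36 and 9.69 hypoxic. It did so too within FVB/N, at 10.25 normoxic and 9.28 and 9.01 hypoxic. In SV129 it was 9.03 normoxic and 8.95 and 9.36 hypoxic. On the FVB/N control only 7 of these 24 markers were the highest of 9 arrays, Acta1 at 13.13 among them. The part of this list in the muscle isoforms' changes was not tested.

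Cox8b stood out on the FVB/N control, at 10.89 against 8.31 to 9.43 on the other 8 arrays. Cox7a1 did likewise, at 10.29 against 7.75 to 8.94. All 8 fast muscle markers were also highest on that array. Of the brown adipocyte markers Ucp1, at 4.54, and Cidea, at 4.34, were not. Elovl3 was highest there, at 6.03 against 5.47 to 5.96 elsewhere.

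The forms Cox4i2 and Ndufa4l2 are known for their response to oxygen. Cox4i2, the lung isoform of subunit 4, had hypoxic levels of 8.59 and 8.85 in BL6, 8.45 and 8.38 in FVB/N, and 9.55 and 7.52 in SV129, and normoxic levels of 8.49, 8.23 and 8.62. The SV129 pair spanned the whole range, and the change of 0.11 ± 0.366 was within the spread (adjusted p = 0.887). Ndufa4l2, a hypoxia-induced relative of the complex IV subunit Ndufa4, was at 10.25 and 10.42 in hypoxic BL6, 9.70 and 9.83 in hypoxic FVB/N and 10.45 and 9.65 in hypoxic SV129. It stood at 9.43, 8.90 and 9.82 on the normoxic arrays. Both hypoxic arrays were higher than the normoxic one in BL6 and FVB/N, while the SV129 normoxic level lay between its pair. It had the largest rise of any member gene by brightest probe set, 0.67 ± 0.208, and did not pass the test (adjusted p = 0.107), with 0.56 over 7 arrays. Ndufa4 itself changed by -0.77 ± 0.381 (adjusted p = 0.271), with a low of 11.20 on hypoxic SV129 array 5.

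**Figure D4:**
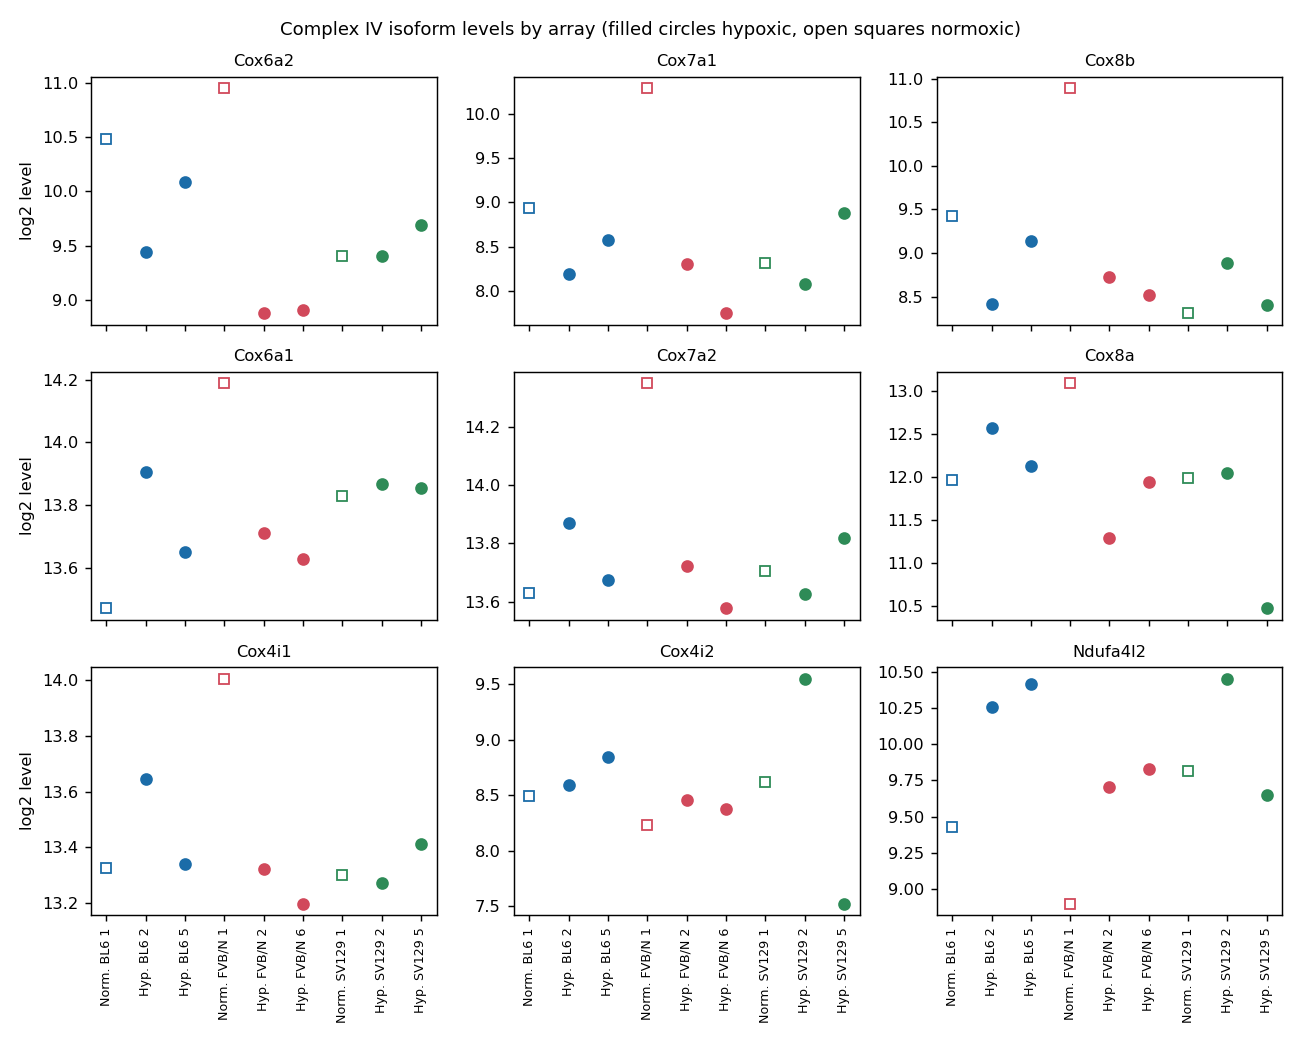
Log2 level of 9 complex IV genes on each array, with strains in colour, filled circles hypoxic and open squares normoxic. Top row: the muscle isoforms, each highest on the FVB/N control, as are the general isoforms of the middle row and Cox4i1. The last panel shows Ndufa4l2, lowest on that array at 8.90.

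Within strains the second comparison set 2 hypoxic arrays against 1 normoxic array, where the fit takes the spread of the control to be that of the hypoxic pairs. In FVB/N, 67 of 163 member probe sets were called (41.1%), 66 of them lower, against a background of 6.8% (limma, Benjamini-Hochberg). By brightest probe set 38 of 88 genes fell, against 4.89% of all genes, with a median of -0.89. All of these rest on the single FVB/N control, which also held the kidney and fast muscle transcripts, and without it the comparison has no control.

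The falls in FVB/N reached every complex: 15 of 41 genes of complex I, 2 of 4 of complex II, 3 of 8 of complex III, 7 of 18 of complex IV and 11 of 17 of complex V. The smallest p belonged to Cox6a2 (-2.05 ± 0.313) and to 3 genes of complex V, Atp5md (-2.04 ± 0.319), Atp5pb (-1.04 ± 0.164) and Atp5g1 (-1.87 ± 0.299), each with a limma adjusted p of 0.027. Atp5g1 was at 12.95 on the normoxic array and at 10.90 and 11.26 on the hypoxic pair, and at 11.22 and 10.89 on the normoxic arrays of BL6 and SV129. The FVB/N control was above the other 8 arrays of the 9. The single rise was a dim probe set of Sdha, 1433293_at, at 4.76 on the normoxic array and 7.18 and 7.39 on the hypoxic pair.

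In BL6 no member probe set was called, against 0.0148% of all. At an unadjusted p below 0.05 there were 25 of 163 (15.3%), against 12.5%. The median change was 0.23, with 74 of 88 genes higher, against a median of 0.04 and 6951 of 12895 genes higher over all. The pair of hypoxic arrays differed: array 2 lay above hypoxic BL6 array 5 for 78 of 88 member genes, against 39.3% of all genes, with a median difference of 0.30. Without the arrays with kidney transcripts 11 probe sets were at an unadjusted p below 0.05, against 6.93% of all. The normoxic BL6 array was above hypoxic BL6 array 5 for 32 of 88 genes, against 43.7% of all.

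SV129 is the strain in which no array carried kidney transcripts. There no member probe set was called, as was the case for all probe sets (0%), and 9 of 163 had an unadjusted p below 0.05 (5.52%), against 7.58%. The median change was 0.02, with 49 genes higher and 39 lower, where 49.6% of all genes were lower. The normoxic array lay above both hypoxic arrays for 23 genes, below both for 24 and between them for 41, against 30.3%, 32% and 37.7% of all genes. The respiratory chain thus showed no common shift in SV129 beyond the gap between its 2 hypoxic arrays.

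Whether hypoxia acted differently between strains was tested by the interaction of strain and pressure. No member probe set was called, nor was any probe set on the array (0%). At an unadjusted p below 0.05 there were 91 of 163 member probe sets (55.8%), against 12.3% of all. The FVB/N control and array 2 of hypoxic BL6 enter this test, and their part in it was not tested.

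The third comparison set the strains against each other at equal pressure. Over 9 arrays 3 of 163 member probe sets were called between FVB/N and BL6 (background 2.07%), 4 between SV129 and BL6 (2.51%) and 3 between FVB/N and SV129 (2.89%). These were 1.84%, 2.45% and 1.84% of the member probe sets, no more than the backgrounds. The strain calls fell on Ndufs5, Uqcr10, Cox6b2 and Atp5j2.

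Ndufs5, an accessory subunit of complex I, had the clearest strain order. It was at 12.20 and 11.93 on the hypoxic and 11.69 on the normoxic BL6 arrays. In SV129 the levels were 10.30, 9.95 and 10.67, and in FVB/N 8.42, 8.08 and 8.86, in the same order. The 3 strains did not overlap. FVB/N minus BL6 was -3.49 ± 0.242 (11.2-fold lower; limma adjusted p = 0.000138). SV129 minus BL6 was -1.64 ± 0.242 (adjusted p = 0.00914) and FVB/N minus SV129 was -1.85 ± 0.242 (adjusted p = 0.00442). Over 7 arrays these differences were -3.45, -1.46 and -1.99, all called. Only 1 probe set reads Ndufs5, so no second probe set could be set beside it. Without probe sequences it could not be checked whether strain variants lie under these probes. The same holds for the strain-dependent probe sets of Uqcr10, Ndufv1 and Ndufv3 below.

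Uqcr10, a small subunit of complex III, differed between strains on 2 of its probe sets. Probe set 1434340_at was at 10.27, 9.63 and 9.29 in BL6, from 5.11 to 6.56 in FVB/N and from 4.77 to 5.50 in SV129. The differences were -3.92 ± 0.395 for FVB/N minus BL6 and -4.56 ± 0.395 for SV129 minus BL6 (limma adjusted p = 0.00109 and 0.000642). Probe set 1434341_x_at gave -2.56 ± 0.287 and -3.10 ± 0.287. The brightest probe set of Uqcr10 did not follow: there FVB/N minus BL6 was 0.04 ± 0.352 and SV129 minus BL6 was -0.52 ± 0.352, with adjusted p of 0.986 and 0.518. Its levels were 12.26, 11.78 and 11.53 in BL6 and 11.52, 11.10 and 11.37 in SV129. The FVB/N control was the highest of the 9 arrays, at 12.85. Set against the gene's mean over 7 arrays, the hypoxic FVB/N arrays were at -0.02 and -0.05. The BL6 arrays were at 0.82, 0.33 and 0.08, so only the FVB/N control overlapped with BL6.

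Cox6b2, the testis form of a complex IV subunit, was at 9.73, 10.03 and 10.15 in BL6, 9.42, 9.81 and 9.10 in FVB/N, and 8.39, 7.35 and 8.25 in SV129. SV129 lay below every array of both other strains. SV129 minus BL6 was -1.98 ± 0.304 (3.93-fold lower; limma adjusted p = 0.0111) and FVB/N minus SV129 was 1.45 ± 0.304 (adjusted p = 0.0399). A dim probe set of Atp5j2, 1443495_at, was higher in FVB/N than in SV129 by 1.44 ± 0.286 (adjusted p = 0.0314), which the brightest probe set of the gene did not show among its levels of 12.93 to 13.50. The difference between FVB/N and SV129 was lost in 10 of 19 settings for Cox6b2 and in 10 of 17 for Atp5j2, whereas that of SV129 and BL6 for Cox6b2 was lost in 2 of 19.

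Without the 2 arrays with kidney transcripts, 8 member probe sets were called between FVB/N and BL6 (background 1.2%), 5 between SV129 and BL6 (2.06%) and 5 between FVB/N and SV129 (2.15%). FVB/N is then represented by its 2 hypoxic arrays alone. The added calls lie in Ndufv1, Ndufv3, Ndufa12 and Cox6a2.

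Ndufv3, a small subunit of the NADH-oxidising module, was at 10.90 and 10.94 on the hypoxic FVB/N arrays and between 12.02 and 12.56 on all BL6 and SV129 arrays. FVB/N minus BL6 was -1.23 ± 0.171 over 7 arrays (limma adjusted p = 0.0149) and FVB/N minus SV129 -1.39 ± 0.149 (adjusted p = 0.00338). The normoxic FVB/N array stood at 12.17, within the range of the other strains, and over 9 arrays neither difference passed (adjusted p = 0.268 and 0.193).

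Ndufv1, the flavin-carrying subunit of the same module, showed a like pattern on 2 of its probe sets. On 1415966_a_at the hypoxic FVB/N arrays were at 9.90 and 9.78, the normoxic FVB/N array at 11.10 and the BL6 and SV129 arrays between 11.25 and 11.69. FVB/N minus BL6 over 7 arrays was -1.54 ± 0.177 (adjusted p = 0.00635), and on 1456015_x_at it was -1.04 ± 0.180 (adjusted p = 0.0385). The brightest probe set of Ndufv1 gave -0.02 ± 0.199 (adjusted p = 0.99). As FVB/N has 2 hypoxic arrays and 1 control that carries kidney transcripts, the strain and the pressure cannot be told apart for Ndufv1 and Ndufv3.

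**Figure D5:**
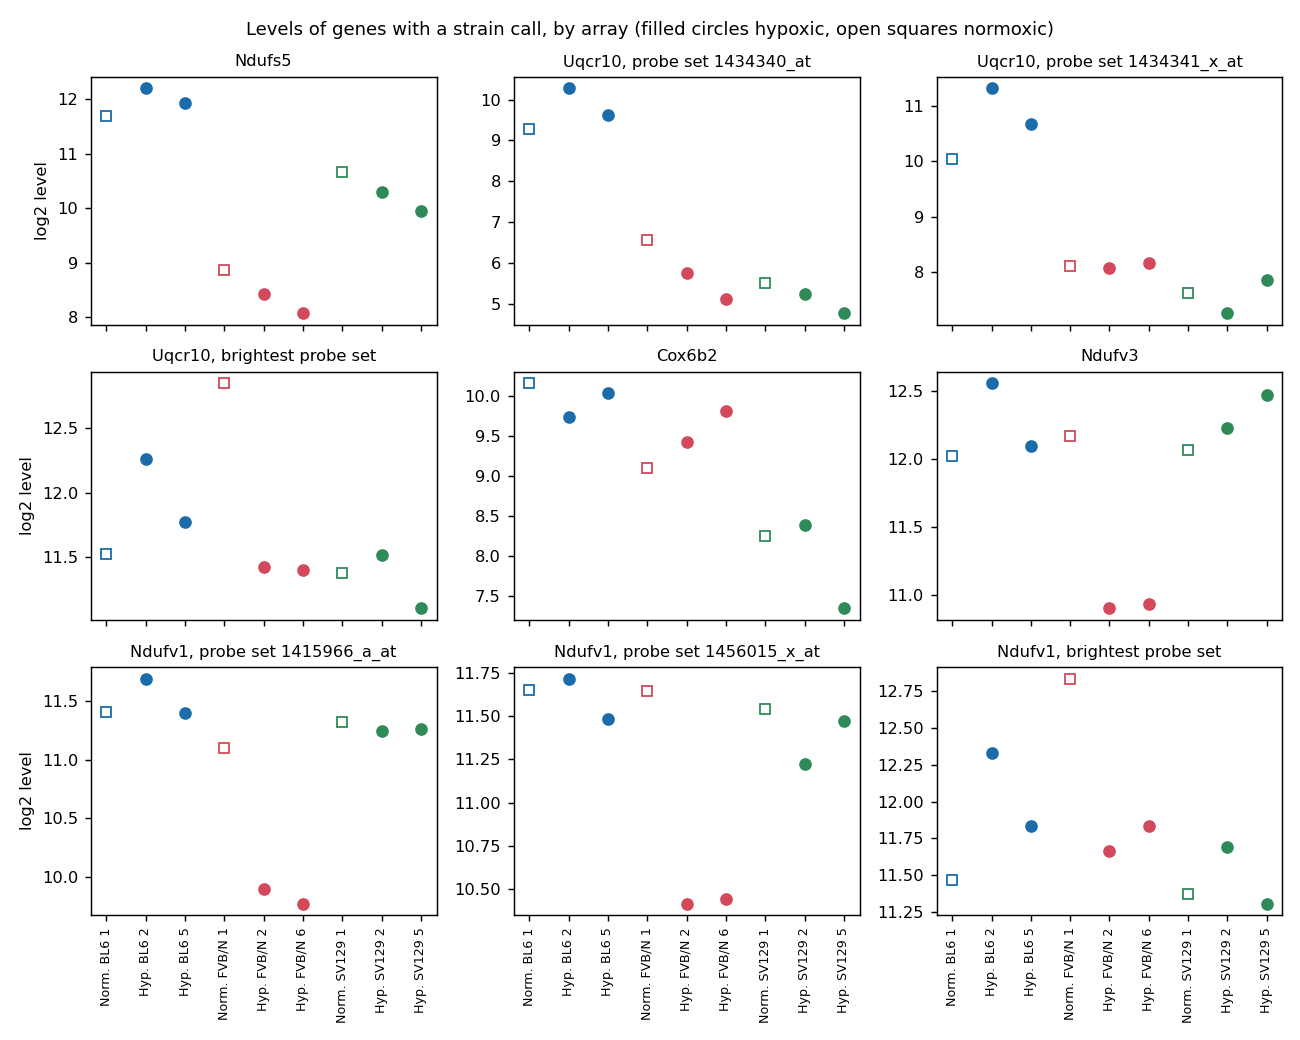
Log2 levels by array of genes with a strain call, with strains in colour, filled circles hypoxic and open squares normoxic. Ndufs5 and 2 probe sets of Uqcr10 separate BL6 from the other strains, while the brightest probe sets of Uqcr10 and Ndufv1 do not. For Uqcr10 the overlap comes from the FVB/N control alone, at 12.85. Ndufv3 and the 2 called probe sets of Ndufv1 are low on the hypoxic FVB/N arrays.

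Over the whole chain the strain medians moved with the 2 arrays. The median difference of 88 member genes was 0.03 over 9 and -0.16 over 7 arrays for FVB/N minus BL6, -0.23 and -0.13 for SV129 minus BL6, and 0.25 and -0.04 for FVB/N minus SV129. BL6 was the higher strain over 7 arrays in 77 of 88 genes against FVB/N and in 65 of 88 against SV129. Of all genes it was the higher strain in 49.0% and 48.6%, with medians of 0.01 in both. Cox7a2l, of which BL6 mice are known to carry a short form, differed by -0.32 ± 0.126 for SV129 minus BL6 and -0.09 ± 0.126 for FVB/N minus BL6, neither called (adjusted p = 0.251 and 0.865).

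Neighbouring mitochondrial pathways gave the setting. Among 12 genes of the tricarboxylic acid cycle, 16 of electron carriers and coenzyme Q synthesis and 36 further assembly factors of complexes I to V, none was called for hypoxia over 9 arrays. Their medians were -0.27, -0.17 and -0.22 over 9 arrays and 0.07, 0.20 and 0.01 over 7 arrays. The normoxic FVB/N array was the highest of 9 for 12 of 12, 13 of 16 and 25 of 37 genes of these lists. Of 17 regulators of mitochondrial biogenesis 1 fell, Ssbp1, the DNA-binding protein of mitochondrial replication, by 0.95 ± 0.186 (limma adjusted p = 0.0312), from 11.46 to 12.05 on the normoxic to 10.60 to 11.22 on the hypoxic arrays. Over 7 arrays it changed by -1.16 (adjusted p = 0.0563). By brightest probe set 2.75% of all genes were called over 9 arrays and 1.35% were called lower. A single call in a list this short does not set the list apart. Of 12 genes from a list of hypoxia-responsive genes none was called, with a median of 0.08 over 9 and 0.15 over 7 arrays. That list is not a separate mitochondrial pathway. It names the members Cox4i2 and Ndufa4l2, Higd1a of the assembly factors, and genes such as Hif1a, Epas1 and Ldha.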

How the data were processed

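The deposited values are linear intensity signals of 45101 probe sets on 9 arrays, scaled by the authors to a common trimmed mean of 500 per array, as the values show. RNA came from snap-frozen lung on silica columns, per the labels' protocols. The sources used here do not name the software behind the signals. Another 12 arrays named in the design text were not analysed here. After 64 controls were removed, log2(signal + 16) was quantile normalized, and the dimmest 40% of probe sets by mean was left out. Fits used limma 3.58.1 in R 4.3.3 with an intensity trend, as an additive model of strain and pressure (5 residual degrees of freedom, 3 over 7 arrays) or 6 groups (3 residual degrees of freedom), with Benjamini-Hochberg adjustment over 27022 probe sets at 0.05. The fits were tested on simulated independent noise with planted changes, which held no kidney transcripts and no array batch, so their effect was not covered. The number of arrays limits the precision. Members, gene lists, tests and alternatives were chosen with earlier results of these data known.

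Named were genes called for hypoxia, the complex IV isoform sets, the 2 genes of smallest p and the brightest gene of each complex, genes called between strains or within a strain, the complex II subunits and called list genes. Ndufs1, Uqcrfs1, genes listed by array order and the split of brown adipocyte from fast muscle markers were chosen after their values were seen. Alternatives were arrays left out, 1 probe set per gene, a replicate block, no trend, a filter at 60% or none, a pseudocount of 1 or 64, and median centring or no normalization.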

Additional observations from a re-analysis of the deposited data

Results flagged for a closer look

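Among the 6 hypoxic arrays, 48 sets of values were checked for 1 array far from the others, by its gap to the next array over the whole range, which chance gives in about 1 of 20 sets, and 4 were found. The complex III median deviation from the 7-array mean was 0.5544 on hypoxic BL6 array 2, and the next array was at 0.1059. The complex V median was 0.4007 on the same array, with the next at 0.05218. Atp5g3, for subunit c of ATP synthase, stood at 13.85 on that array, with the next at 13.50. This array carried kidney transcripts. Ndufa6, an accessory subunit of complex I, was low at 11.21 on hypoxic SV129 array 5, with the next array at 11.82.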

How the results depend on the processing

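The count of 9 member probe sets called for hypoxia across strains became 5 under median centring, 4 without the intensity trend, 1 without both arrays with kidney transcripts and 1 with 1 probe set per gene, and none of the 9 reversed under any of up to 19 settings, but each lost its call in 3 (Cox5a) to 13 (Ndufa12) of them. Leaving out 1 array gave 0 to 9 calls, with 0 without hypoxic BL6 array 5, the normoxic BL6 array or the normoxic SV129 array, and 3 without either hypoxic FVB/N array. The 67 calls in FVB/N became 39 without the filter and 0 without the trend, and 0 to 104 with 1 array left out, where 0 came from omitting either hypoxic FVB/N array. Without both arrays with kidney transcripts the FVB/N and BL6 comparison gave 8 calls and the FVB/N and SV129 comparison 5. With 1 probe set per gene FVB/N against BL6 gave 1 and SV129 against BL6 gave 2. Leaving out 1 array gave 3 to 7 calls for FVB/N against BL6, 2 to 5 for SV129 against BL6, 1 to 5 for FVB/N against SV129, 0 to 0 within BL6 and within SV129, and 0 to 9 for the interaction, the 9 without hypoxic BL6 array 5. The complex medians then ran from -0.3724 to 0.119 in complex I, -0.4744 to 0.2699 in II, -0.6948 to 0.1205 in III, -0.3939 to 0.0711 in IV and -0.4974 to 0.0836 in V, lowest without the normoxic BL6 array and highest, with the sign turned, without the normoxic FVB/N array. Median centring made 71.3% of all hypoxia calls higher, against 51.7%.

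The array number as a replicate block gave 27 calls for hypoxia across strains and 0 for FVB/N against SV129. Same-numbered hypoxic arrays did not deviate together (r from -0.19 to -0.03 over 27022 probe sets). With 2 hypoxic arrays per strain this cannot decide whether the numbers pair the arrays. The normoxic arrays all carry number 1, so theirs could not be examined. The cause of the changes with the trend, filter and scaling was not tested.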
